A study of Homo sapiens with 6 samples.

Results

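Forkhead genes encode the FOX transcription factors, which share a winged-helix DNA-binding domain. The set described here holds every protein-coding RefSeq gene whose symbol is FOX, 1 letter and digits, including forms such as FOXD4L1, which gives 51 genes. DNA methylation was read at 195 regions that overlap these genes or lie within 10 kb of them, of 35130 regions in all, and 47 of the 51 genes had at least 1 region. FOXD4L5, FOXI1, FOXN2 and FOXR2 had none. The values come from reduced representation bisulfite sequencing of 3 libraries of M07e cells with a CRISPR-based DNMT3B knockout and 3 libraries of control M07e cells, labelled WT. M07e cells derive from a patient's acute megakaryoblastic leukemia and are kept as an established line, and both groups were grown with fetal bovine serum and GM-CSF. Per the series title, the study concerns leukemia driven by the CBFA2T3-GLIS2 fusion. The labels do not say whether the knockout is 1 clone or whether replicates came from separate cultures.

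DNMT3B is an enzyme that places methyl groups on cytosines of CpG dinucleotides that did not carry them before. In CpG-rich sequence near gene starts, dense methylation usually goes with a silent gene, while many developmental forkhead genes are unmethylated in normal cells and are held silent by Polycomb proteins. FOXA factors open closed chromatin in endoderm, FOXC and FOXF factors act in mesoderm and vessels, FOXO factors answer to insulin and AKT signalling, and FOXP3 directs regulatory T cells. FOXO and FOXP1 factors also act in blood cells.

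All levels, differences, p-values and q-values of single regions given here come from the authors' deposited table, where each group has a single mean level per region. Read coverage and library-to-library spread are therefore unknown, and no value carries a replicate error. One group column is named for WT cells. The other carries a name, M07e_3883, that no label uses, and it was read as the knockout for want of any other genotype, so all directions below depend on that reading. A call required a deposited q under 0.01 together with a difference of at least 25 percentage points. Per the file headers the p-values come from a Mann-Whitney test and a 2-dimensional Kolmogorov-Smirnov test. Which points entered those tests is not stated, but values as small as some printed below cannot come from a rank test of 3 libraries against 3, so a call is not a test over replicates. Library depths were not analysed here.

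Positions were checked against RefSeq promoter sequences of GRCh38.p14, the build named in the submitters' notes as hg38. Of 2508 regions that lie within a promoter window, all 2508 began and ended on a base of a CpG when the deposited positions were moved 1 base to the right of their half-open reading, against 971 without that shift. Positions are printed with the shift, counted from 1. Deposited site numbers never exceeded the number of CpG bases counted on both strands in these 2508 regions, but only 199 of them matched the number of CpG pairs. A site is therefore 1 cytosine of 1 strand, and a region of 5 sites can span very few bases, such as the 6 of the FOXA1 region described below.

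Among the promoter windows that a forkhead region touches, 8 are printed here, as examples of called, uncalled and unmethylated starts. Each runs 5′ to 3′ on the gene's strand from 250 bases before to 50 bases after a RefSeq start (GRCh38.p14), and capitals mark the bases inside the measured region. The first 3 hold part of a called region: the starts of FOXA3 and FOXE1, which were lower in the knockout, and of LINC01388, a noncoding RNA gene beside FOXD4, which was higher.
FOXA3, chr19:45864076-45864375, plus strand: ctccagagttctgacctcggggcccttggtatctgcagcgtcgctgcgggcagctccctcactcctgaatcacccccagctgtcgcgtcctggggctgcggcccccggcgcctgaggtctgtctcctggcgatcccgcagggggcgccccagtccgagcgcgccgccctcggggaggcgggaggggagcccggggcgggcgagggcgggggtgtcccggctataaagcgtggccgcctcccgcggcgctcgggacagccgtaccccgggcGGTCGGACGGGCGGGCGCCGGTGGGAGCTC
FOXE1, chr9:97852976-97853275, plus strand: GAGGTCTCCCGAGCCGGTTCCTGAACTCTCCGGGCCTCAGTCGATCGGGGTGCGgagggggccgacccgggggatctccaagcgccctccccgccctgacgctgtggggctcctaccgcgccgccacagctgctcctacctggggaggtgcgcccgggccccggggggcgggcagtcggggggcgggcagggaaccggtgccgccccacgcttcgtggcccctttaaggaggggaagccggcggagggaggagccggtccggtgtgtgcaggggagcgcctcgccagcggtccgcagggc
LINC01388, chr9:113746-114045, minus strand: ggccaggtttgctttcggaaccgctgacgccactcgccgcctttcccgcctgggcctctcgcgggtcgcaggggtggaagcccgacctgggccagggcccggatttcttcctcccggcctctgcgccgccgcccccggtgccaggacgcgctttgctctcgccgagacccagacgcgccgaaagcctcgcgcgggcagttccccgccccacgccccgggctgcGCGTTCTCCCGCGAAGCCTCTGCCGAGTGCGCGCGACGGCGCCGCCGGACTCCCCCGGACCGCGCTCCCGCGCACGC
FOXI2 and FOXD4 had regions at their starts that differed by over 25 points without passing the q threshold.
FOXI2, chr10:127736935-127737234, plus strand: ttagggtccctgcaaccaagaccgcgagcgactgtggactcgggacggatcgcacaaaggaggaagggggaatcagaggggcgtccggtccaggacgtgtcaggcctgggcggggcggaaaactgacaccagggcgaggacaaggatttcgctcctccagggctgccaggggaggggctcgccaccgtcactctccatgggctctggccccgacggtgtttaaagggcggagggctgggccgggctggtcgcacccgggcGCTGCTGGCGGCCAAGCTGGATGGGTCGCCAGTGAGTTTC
FOXD4, chr9:118368-118667, minus strand: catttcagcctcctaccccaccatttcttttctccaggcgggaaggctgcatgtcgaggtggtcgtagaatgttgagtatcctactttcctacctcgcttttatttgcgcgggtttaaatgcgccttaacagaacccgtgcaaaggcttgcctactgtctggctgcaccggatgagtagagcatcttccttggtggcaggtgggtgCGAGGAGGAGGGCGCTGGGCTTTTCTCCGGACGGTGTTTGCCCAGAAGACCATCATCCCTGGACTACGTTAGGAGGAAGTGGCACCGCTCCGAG
FOXO3 had a region at a start inside the gene with no methylation in the control, and FOXK1 and FOXK2 had regions under 5% in both groups.
FOXO3, chr6:108560915-108561214, plus strand: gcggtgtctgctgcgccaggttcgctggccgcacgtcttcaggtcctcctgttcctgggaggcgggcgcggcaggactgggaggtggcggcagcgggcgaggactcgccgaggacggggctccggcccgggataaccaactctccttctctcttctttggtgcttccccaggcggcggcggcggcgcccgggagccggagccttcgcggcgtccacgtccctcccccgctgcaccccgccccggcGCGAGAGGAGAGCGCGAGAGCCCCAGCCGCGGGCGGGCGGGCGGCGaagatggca
FOXK1, chr7:4682045-4682344, plus strand: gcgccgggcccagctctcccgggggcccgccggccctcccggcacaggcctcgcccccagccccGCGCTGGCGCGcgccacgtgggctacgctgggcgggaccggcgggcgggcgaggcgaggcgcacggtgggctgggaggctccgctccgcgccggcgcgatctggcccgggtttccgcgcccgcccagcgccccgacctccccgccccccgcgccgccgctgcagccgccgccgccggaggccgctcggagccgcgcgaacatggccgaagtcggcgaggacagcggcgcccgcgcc
FOXK2, chr17:82519482-82519781, plus strand: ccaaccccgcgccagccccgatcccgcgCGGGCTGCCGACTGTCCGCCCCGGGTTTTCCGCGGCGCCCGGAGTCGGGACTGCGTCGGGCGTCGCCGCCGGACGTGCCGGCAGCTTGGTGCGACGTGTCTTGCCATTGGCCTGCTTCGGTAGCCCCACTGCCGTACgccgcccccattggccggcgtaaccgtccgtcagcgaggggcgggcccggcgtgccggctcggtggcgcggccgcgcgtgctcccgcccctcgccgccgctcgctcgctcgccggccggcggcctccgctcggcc

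Outside chromosome 8, whose windows were left out of this count, forkhead regions touch 15 windows. The one of FOXJ3, not printed, was also under 5% in both groups, at 4.61% in the knockout and 0.762% in the control. It holds 38 CpG pairs. The windows of FOXK1 and FOXK2 each hold 55, more than those of LINC01388 (47), FOXO3 (40), FOXA3 (37), FOXE1 (32), FOXI2 (24) and FOXD4 (16). CCGG, the site cut by the enzyme MspI from which the libraries were made, occurs 9 times each in the windows of FOXK2 and FOXE1 and 2 times in that of FOXD4. Of 51 windows of the 40 forkhead genes found in the RefSeq table, 40 hold CCGG (78.4%), against 63.1% of all 35116 windows. TGTTTAC, a forkhead binding motif searched on both strands, is in 2 of the 51 windows (3.92%) and in 3.42% of all windows, and in none of the 8 printed.

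Methylation differed in both directions at forkhead genes. Of 195 regions 32 were called (16.4%), beside 6.74% of all regions, and 22 of them rose in the knockout while 10 fell. Called higher regions made up 11.3% of forkhead regions beside 4.57% of all regions, and called lower regions 5.13% beside 2.17%. The higher calls had a median level of 65.2% in the knockout, against 15.1% in the control, with differences of 28.5 to 68.5 points. The lower calls had a median of 21.0% in the knockout, against 57.1% in the control, with differences of -57.5 to -27.2 points. Upward calls were 68.8% of the forkhead calls and 67.8% of all calls, so the balance of directions was near that of the table as a whole. Over the 195 regions the median difference was 19.5 points, and 17.4 points over the whole table. With the authors' Kolmogorov-Smirnov p adjusted over all regions in place of q, 19 of the 195 were called (beside 4.12% of all regions), and with their Mann-Whitney p 32 were called (beside 8.7%).

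**Figure D1:**
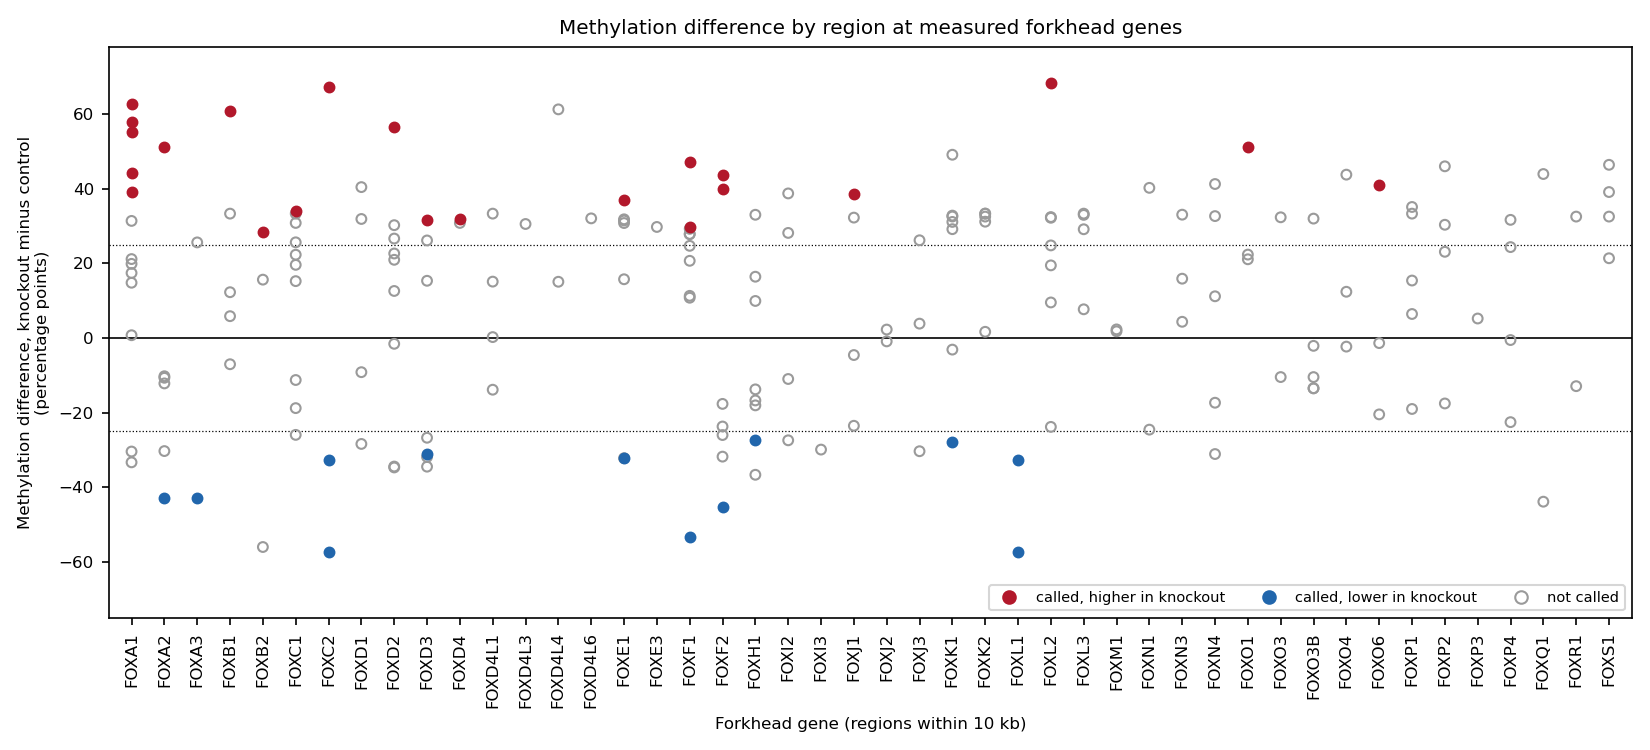
Methylation difference (knockout minus control, percentage points, vertical axis) at regions of measured forkhead genes (horizontal axis), with called regions filled red (higher in knockout) or blue (lower) and dotted lines at 25 points either way. FOXA1 had 5 called regions, all higher, while FOXF1 and FOXF2 had calls on both sides of 0; the FOXC2 and FOXL1 columns share 2 regions.

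Counted over genes, 20 of the 47 measured forkhead genes had a called region (42.6%), beside 17.2% of all 13591 protein-coding genes with a region within 10 kb. A forkhead gene had a median of 4 regions and any protein-coding gene 2. Only higher calls were found at 10 forkhead genes, only lower calls at 4, and both at 6. This split was not made over all protein-coding genes, so it does not show whether forkhead genes differed in it. With the Kolmogorov-Smirnov p adjusted over all regions, only FOXF1 and FOXC2 of those 6 kept calls of both directions. Forkhead regions also held more sites, with a median of 8 beside 6 over all regions, and 17.3 sites per 100 bases beside 12.7. Calls were commoner in regions with many sites throughout the table. Of forkhead regions with 15 or more sites 14 of 30 were called (46.7%), beside 26.8% of all regions of that size. With 10 to 14 sites 7 of 40 were called (17.5%), beside 9.37%, and with 7 to 9 sites 4 of 62 (6.45%), beside 4.96%. With 5 or 6 sites 7 of 62 were called (11.3%), beside 3.64%. No test was made of whether these shares differ, because neighbouring regions share libraries and loci.

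**Figure D2:**
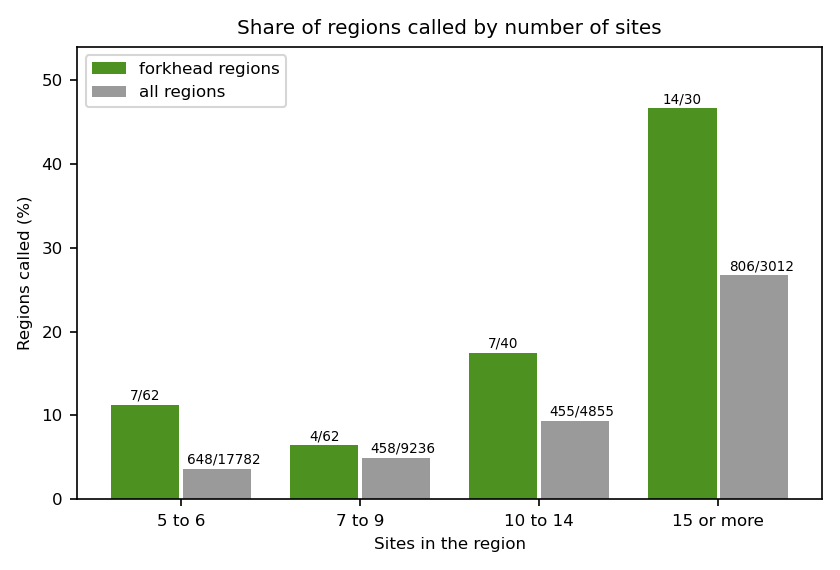
Share of regions called (percent, vertical axis) by the number of sites in the region (horizontal axis), for forkhead regions (green) and all regions (grey), with called over total counts above the bars. In both sets the share was highest, 46.7% and 26.8%, at 15 or more sites.

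FOXA1, FOXA2 and FOXA3 encode pioneer factors of liver, gut and gland development, and each had a called region. FOXA1 had the most regions of the family, 13, with 5 called, all of them higher in the knockout. Within the gene, 87 bases after its start, 5 sites in 6 bases were at 72.1% in the knockout and 9.33% in the control (chromosome 14, 37595157 to 37595162, q = 0.00149). Further into the gene, 5 sites were at 66.9% in the knockout and 8.89% in the control (37594686 to 37594699, q = 0.0032). Before the start, 2 called regions lay inside TTC6, the neighbouring gene. The one 813 bases from FOXA1 was at 41.2% in the knockout and 2.04% in the control (q = 0.00831), and the one 3177 bases away was at 81.0% in the knockout and 25.7% in the control (q = 6.33e-05). The fifth, 5131 bases beyond the far end of FOXA1, was at 63.5% in the knockout and 19.2% in the control over 16 sites (q = 0.0011). Gains thus lay on both sides of the gene and inside it. Of the 8 other FOXA1 regions, 5 had a higher mean in the knockout, by 14.8 to 31.4 points, and none was called. Those with a lower mean included one at 65.5% in the knockout and 95.9% in the control (q = 0.604).

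FOXA2 carried calls of both directions within the gene, 2107 bases apart. A region of 21 sites was at 59.6% in the knockout and 8.57% in the control (chromosome 20, 22585350 to 22585423, q = 6.6e-06). The other, of 12 sites, was at 32.3% in the knockout and 75.1% in the control (22583181 to 22583243, q = 0.00284). Its 4 remaining regions were all lower in the knockout and none was called. At FOXA3 19 sites that begin 20 bases after the start were at 14.7% in the knockout and 57.6% in the control (chromosome 19, 45864346 to 45864408, q = 2.93e-08), the lowest q of any forkhead region. The first 30 bases of that region are the capitals of the FOXA3 window above. A second FOXA3 region just beyond it was at 27.6% in the knockout and 1.98% in the control but was not called (q = 0.184).

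FOXE1, a thyroid development factor, had calls of opposite direction on the 2 sides of its start. Neither passed 0.01 when the authors' Kolmogorov-Smirnov p or their Mann-Whitney p was adjusted over all regions. The region ending 197 bases before the gene, in capitals above and inside the noncoding gene PTCSC2, was at 21.4% in the knockout and 53.7% in the control over 12 sites (chromosome 9, 97852954 to 97853029, q = 0.00631). Inside the gene, 765 bases on, 17 sites were at 40.8% in the knockout and 3.92% in the control (97853794 to 97853877, q = 0.00528). The next 3 regions of the gene were also higher in the knockout, at 31.0%, 31.9% and 33.5%, against 0.206%, 16.2% and 1.67% in the control, and were not called. Upstream, an uncalled region 940 bases away was at 13.3% in the knockout and 45.6% in the control. Another, 4483 bases away, went the other way, at 31.5% in the knockout and 0 in the control. FOXH1, which works with SMAD proteins under Nodal signals, had 1 called region among 8, and it lay 7134 bases away inside KIFC2 and TMEM276. It was at 20.6% in the knockout and 47.8% in the control (chromosome 8, 144466270 to 144466278, q = 0.00154). Regions of FOXI2 and FOXI3, related to the inner ear factor FOXI1, and of FOXE3, a lens factor, were not called. At the FOXI2 start the level was 32.5% in the knockout and 59.9% in the control (q = 0.243). In all, 11 of 42 regions of the FOXA, FOXE, FOXH and FOXI genes were called (26.2%, beside 6.74% of all regions), 7 higher and 4 lower, and their median difference was 15.3 points, beside 17.4 points over the whole table.

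**Figure D3:**
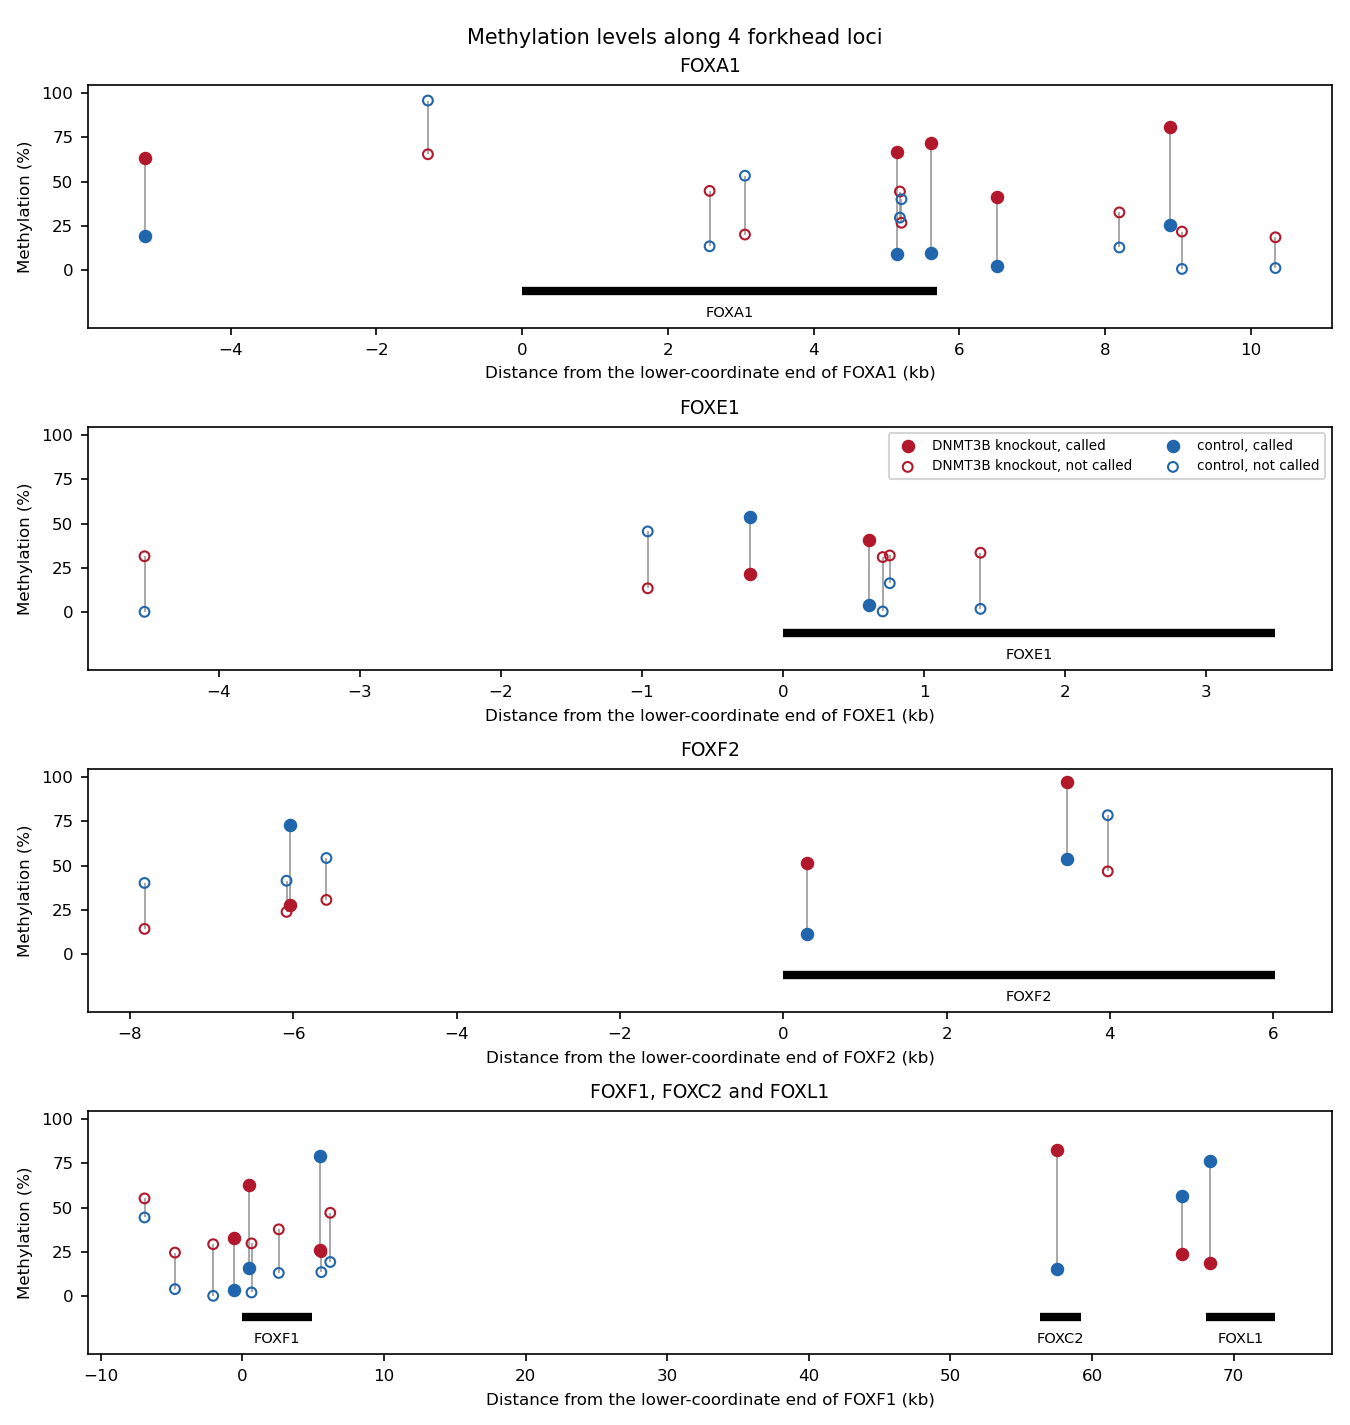
Methylation level (percent, vertical axis) in the knockout (red) and control (blue) at each region along 4 forkhead loci, by distance from a gene end (kb, horizontal axis), with called regions filled and genes as black bars. FOXA1 calls were all higher in the knockout, while FOXE1, FOXF2 and the FOXF1, FOXC2 and FOXL1 locus had calls of both directions.

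FOXF1, FOXC2 and FOXL1 stand within 73.0 kb on chromosome 16 and act in vessels and in the mesenchyme of lung and gut. Their 13 regions held 6 calls, 3 higher and 3 lower, beside 6.74% of all regions called, 4.57% higher and 2.17% lower. The FOXF1 end gained methylation: 40 sites in a region 386 bases outside the gene were at 32.9% in the knockout and 3.06% in the control (86509809 to 86510141, q = 0.000309). Inside FOXF1, 15 sites were at 62.7% in the knockout and 15.6% in the control (86510965 to 86511046, q = 0.000373). Just past its other end, 10 sites fell to 26% in the knockout, against 79.3% in the control (86515977 to 86516025, q = 0.00126). The 7 FOXF1 regions that were not called were all higher in the knockout, by 10.8 to 29.3 points.

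FOXC2, a factor of lymphatic vessels, had the second largest gain of the family. Its 13 sites inside the gene were at 82.7% in the knockout and 15.4% in the control (86568040 to 86568075, q = 4.52e-06). Between FOXC2 and FOXL1, a factor of gut mesenchyme, 16 sites were at 23.9% in the knockout and 56.6% in the control (86576772 to 86577015, q = 0.00607). Inside FOXL1 12 sites were at 18.7% in the knockout and 76.1% in the control (86578793 to 86578968, q = 1.83e-05), the largest loss among called forkhead regions. Both of these regions lie within 10 kb of both genes. They are counted once among regions, but for FOXC2 and for FOXL1 in the counts over genes. FOXC2 has calls of both directions only through them.

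FOXQ1, FOXF2 and FOXC1 stand within 301.8 kb on chromosome 6. Of their 19 regions 4 were called, 3 higher and 1 lower, beside 6.74% of all regions called, 4.57% higher and 2.17% lower. FOXF2, a mesenchymal factor, had 3 of these 4 calls. Near its start, 16 sites were at 51.4% in the knockout and 11.5% in the control (1389843 to 1389896, q = 0.00673). Deeper in the gene 7 sites were at 97.4% in the knockout and 53.7% in the control (1393046 to 1393067, q = 0.000114). Upstream, inside the noncoding gene FOXF2-DT and 6030 bases from FOXF2, 10 sites were at 27.8% in the knockout and 73.2% in the control (1383522 to 1383546, q = 0.00831). The 3 other upstream regions were likewise lower in the knockout, with differences of -26.02, -17.7 and -23.7 points, without passing the threshold. So was one further into the gene, at 46.7% in the knockout and 78.5% in the control (q = 0.026).

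FOXC1, a mesoderm and eye factor that some acute myeloid leukemias express, had 10 regions and 1 call, 5651 bases beyond the gene. Its 29 sites were at 39.5% in the knockout and 5.49% in the control (1619548 to 1620185, q = 0.00212). The next region, of 24 sites, was at 52.3% in the knockout and 21.5% in the control (q = 0.0246). Inside the gene both regions were lower in the knockout, at 3.55% against 14.8% in the control and 5.83% against 31.8% in the control, and neither was called. FOXQ1 had 2 regions that went opposite ways: 40.2% in the knockout against 84.1% in the control upstream (q = 0.0235), and 44.0% in the knockout against 0 in the control within the gene (q = 1). FOXL2, which maintains the ovary, had the largest gain of the family, to 83.2% in the knockout, against 14.8% in the control, over 11 sites inside the gene (chromosome 3, 138946597 to 138946634, q = 5.34e-06). The 4 regions of FOXS1 were higher in the knockout by 21.4 to 46.4 points and none was called. Over the FOXC, FOXF, FOXL1, FOXL2, FOXQ1 and FOXS1 genes, 11 of 43 regions were called (25.6%, beside 6.74% of all regions), 7 higher and 4 lower, with a median difference of 22.3 points, beside 17.4 points over the whole table.

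**Figure D4:**
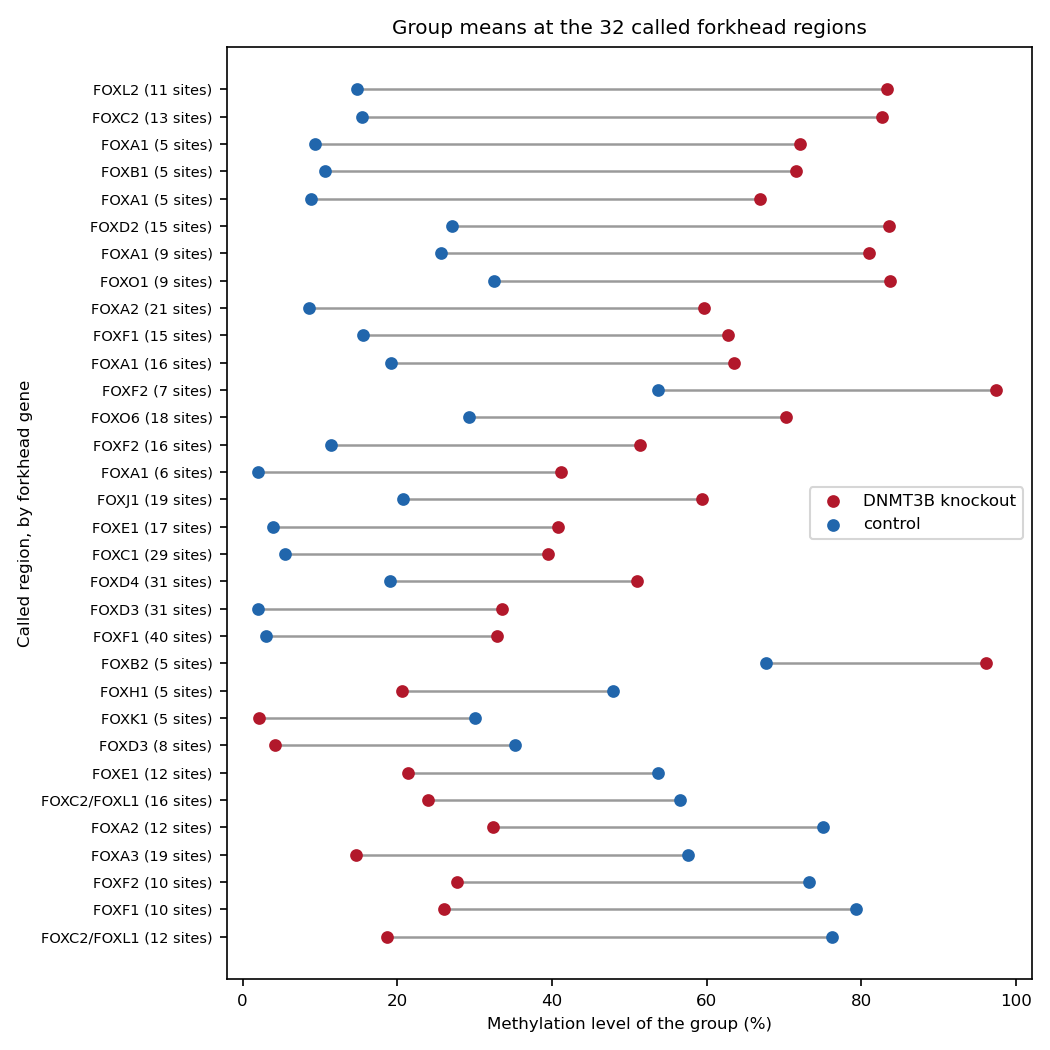
Group mean methylation (percent, horizontal axis) in the knockout (red) and the control (blue) at each of the 32 called forkhead regions (vertical axis, by gene and number of sites), joined by a line and ordered by difference. FOXL2 has the largest gain, 83.2% against 14.8% in the control, and the region inside FOXL1 the largest loss, 18.7% against 76.1% in the control.

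The list of neural and neural crest genes, which holds the FOXB and FOXD genes, had 6 calls among 41 regions (14.6%, beside 6.74% of all regions), 5 higher and 1 lower, with a median difference of 15.6 points, beside 17.4 points over the whole table. FOXB1, expressed in the developing brain, had 5 sites at 71.5% in the knockout and 10.7% in the control inside the gene (chromosome 15, 60005932 to 60005991, q = 0.00323). Its relative FOXB2 had 5 sites that were largely methylated in both groups, 96.2% in the knockout and 67.7% in the control (chromosome 9, 77020772 to 77020782, q = 5.43e-05). FOXD2 had 15 sites inside the gene at 83.6% in the knockout and 27.0% in the control (chromosome 1, 47439692 to 47439817, q = 1.4e-05), with 8 other regions not called. FOXD3, a neural crest and pluripotency factor, had a loss upstream, 4.17% in the knockout against 35.3% in the control over 8 sites (63319812 to 63320129, q = 0.00913). Inside the gene, where FOXD3-AS1 also lies, 31 sites were at 33.6% in the knockout and 1.94% in the control (63324069 to 63324502, q = 0.00339). The FOXD4 call lay at the start of LINC01388, 2409 bases from FOXD4, where 31 sites were at 50.9% in the knockout and 19.0% in the control (chromosome 9, 113708 to 113822, q = 0.00243). None of the regions of FOXD4L1, FOXD4L3, FOXD4L4 and FOXD4L6 was called. FOXD4 and its copies are near-identical genes, so their levels are uncertain where the authors' mapping could not place reads.

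FOXD1, a factor of kidney stroma, had no call. It had a region of 19 sites at 31.9% in the knockout and 0 in the control, beside one at 42.7% in the knockout and 71.1% in the control (q = 0.0503).

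Genes of cilia, thymus and the cell cycle had 1 call among 23 regions (4.35%), near the 6.74% of all regions, and a median difference of 3.85 points, beside 17.4 points over the whole table. The call was at FOXJ1, the factor that switches on motile cilia genes: 19 sites inside the gene were at 59.4% in the knockout and 20.7% in the control (chromosome 17, 76137671 to 76137904, q = 0.000625). FOXM1, which drives mitotic genes, was read only at 2 adjoining regions inside the gene, which also overlap RHNO1. They were nearly unmethylated, at 2.67% and 3.05% in the knockout and at 0.375% and 1.25% in the control. The FOXJ2 regions, which lie outside the gene, were also low, at 3.05% and 1.97% in the knockout and 0.788% and 2.89% in the control. FOXN1, which builds the thymic epithelium, had 1 region at 76.1% in the knockout and 35.8% in the control (q = 0.204) and another at 17.0% in the knockout and 41.5% in the control (q = 0.953).

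The FOXO, FOXK and FOXP genes other than FOXO3B, with roles in insulin signalling, metabolism and immunity, had 3 calls among 37 regions (8.11%), 2 higher and 1 lower, near the 6.74% of the whole table. FOXO1 was higher in the knockout at all 3 of its regions. The called one, 471 bases after the start, was at 83.7% in the knockout and 32.5% in the control over 9 sites (chromosome 13, 40666151 to 40666170, q = 0.000216). Another of 12 sites passed the q threshold (q = 3.44e-05) at 30.7% in the knockout and 8.36% in the control, a difference of 22.4 points. FOXO6, a brain member of the group, was at 70.2% in the knockout and 29.3% in the control over 18 sites (chromosome 1, 41361983 to 41362042, q = 0.000153). FOXK1, a repressor of autophagy genes, had the lower call, 2.15% in the knockout against 29.99% in the control over 5 sites that begin 746 bases after its start (chromosome 7, 4683041 to 4683073, q = 0.000717). Of the 7 FOXK1 regions, 5 were higher in the knockout and none of those was called. The largest FOXK1 difference was among them, at 81.6% in the knockout and 32.4% in the control (q = 0.0245).

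The other members of that group had no call. FOXO3 had 18 sites, the capitals of its window above, at 32.4% in the knockout and 0 in the control (q = 1), and a second region at 2.86% in the knockout and 13.3% in the control. FOXO3B, which is not counted in that group, is a near copy of FOXO3, so reads could be split between them where their sequences match. Whether they match at the FOXO3B regions was not tested. None of its 5 regions, all of which also overlap ZNF286B, was called. FOXO4 had 1 region at 83.2% in the knockout and 39.4% in the control (q = 0.0663) and 2 nearer its start at 15.9% and 1.85% in the knockout, against 3.53% and 4.17% in the control. FOXK2 was at 2.55% in the knockout and 0.895% in the control at its start, and its 4 other regions were each at 31.2% to 33.3% in the knockout and 0 in the control. FOXP1, a B-cell factor, had 5 regions with differences of -19.0 to 35.1 points. FOXP2, a brain factor, had 4 with differences of -17.6 to 46.0 points, and FOXP4, its relative, had 4 with differences of -22.6 to 31.7 points. The 1 region assigned to FOXP3 lay 5539 bases away inside PPP1R3F, at 16.9% in the knockout and 11.6% in the control (q = 0.000755).

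A recurrent pair of values was a control mean of 0 with a knockout mean between 25% and 34%. It was found in 30 of the 195 forkhead regions (15.4%) and in 21.0% of all regions, and it touched 22 forkhead genes. In all, 43 forkhead regions had a group mean of exactly 0, 37 in the control and 6 in the knockout. All 43 carried a Kolmogorov-Smirnov p of 1, and so did 10736 of the 10807 such regions in the table, of which 0 were called. A region inside FOXD4L4, at 61.3% in the knockout and 0 in the control, was among them (q = 1). Of 81 forkhead regions with at least 25 points and a q of 0.01 or more, 37 were of this kind. How such means arose over 3 libraries was not tested, since single libraries were not analysed here. Of the 32 called regions, 3 had a knockout mean of 30% to 34% (the FOXF1 region of 40 sites, the FOXA2 loss and the FOXD3 gain) and 1 had such a control mean (FOXO1).

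**Figure D5:**
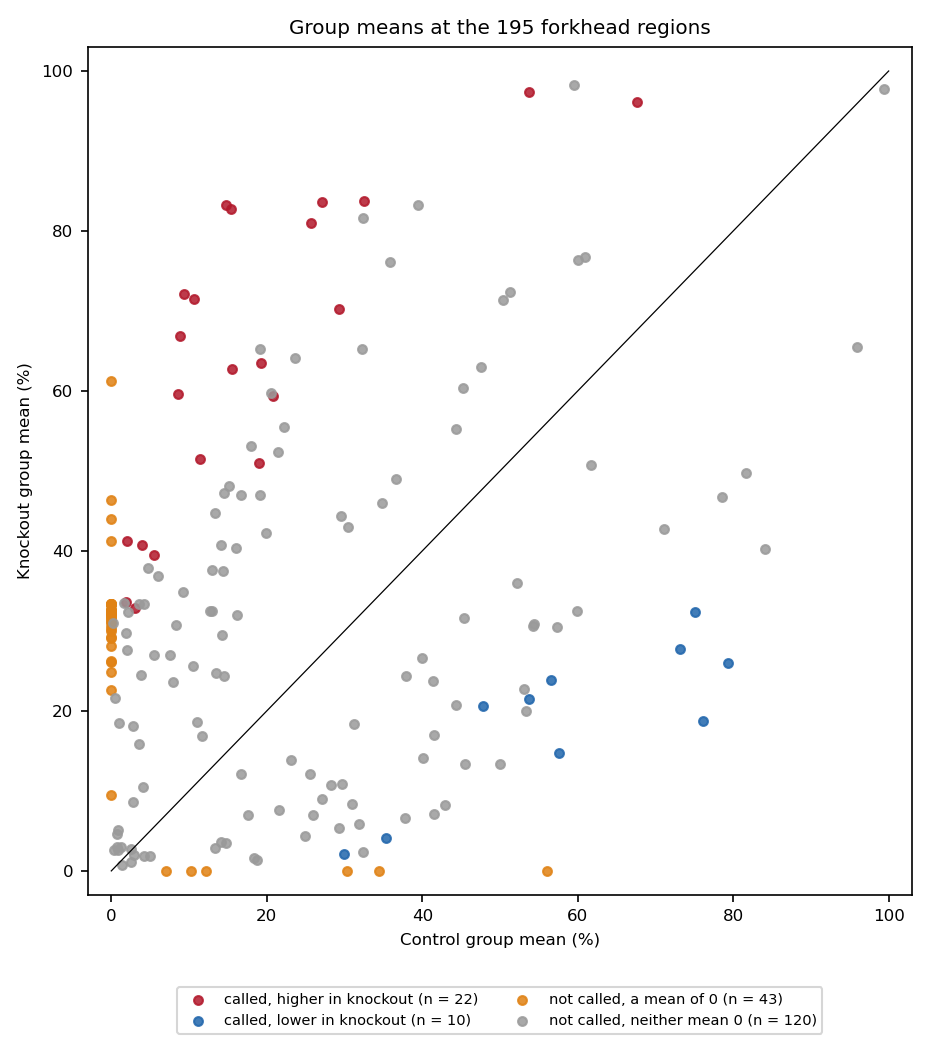
Knockout mean (percent, vertical axis) against control mean (percent, horizontal axis) at the 195 forkhead regions, each point 1 region, with the line of equality. The 43 regions with a mean of 0 (orange) lie on the axes, many of them near 30% in the knockout, and none is among the 32 called regions (red and blue).

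Calls were spread over gene bodies and flanks. Inside the genes 20 of 107 regions were called (18.7%), 16 higher and 4 lower. This stands beside 7.20% of the 22681 regions inside any protein-coding gene, with 1119 higher and 514 lower. Within 1000 bases outside, 4 of 20 were called, 2 in each direction, beside 7.34% of the regions at that distance from the nearest protein-coding gene. Further out, 8 of 68 were called (11.8%), 4 in each direction, beside 6.60%. These flank shares are of unlike sets: forkhead regions were placed by distance to the forkhead gene only. A forkhead flank inside another protein-coding gene counts as inside a gene in the shares beside it. Of the 12 calls outside the forkhead gene, 6 lay within another annotated gene, so their assignment to the forkhead gene rests on distance alone. In the 6 genes with calls of both directions, the nearest opposite calls were 765 bases apart at FOXE1, 2107 at FOXA2, 3940 at FOXD3, 4931 at FOXF1, 6297 at FOXF2 and 8697 at FOXC2. The FOXC2 losses are the regions shared with FOXL1. Regions under 5% in both groups numbered 11 (5.64%, beside 13.4% of all regions) and lay at FOXD4L1, FOXJ2, FOXJ3, FOXK1, FOXK2, FOXM1, FOXO4, FOXO6 and FOXP4. A single region, near FOXD2, was over 70% in both groups, at 97.8% in the knockout and 99.4% in the control.

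Members nearest the threshold of 25 points, among those with q under 0.01, are given as a description. Just inside it were the regions of FOXH1 (-27.2 points), FOXK1 (-27.8 points) and FOXB2 (28.5 points). Just outside were FOXP4 at 8.39% in the knockout and 31.0% in the control (-22.6 points), the FOXO1 region of 12 sites (22.4 points) and FOXO6 at 4.38% in the knockout and 24.9% in the control (-20.5 points).

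Genes that work with forkhead factors were taken from 3 lists. Of 26 genes that regulate FOXO factors or are their targets, 19 had regions, and 3 of 69 regions were called (4.35%, beside 6.74% of all regions). At SESN3, a FOXO target of the sestrin family, 15 sites were at 73.9% in the knockout and 1.45% in the control (chromosome 11, 95230848 to 95230899, q = 1.04e-12). At AKT1, the kinase that excludes FOXO factors from the nucleus, a region 4446 bases away was at 35.5% in the knockout and 63.7% in the control (q = 0.00177). At BCL2L11, which encodes the death protein BIM, a region 1648 bases away was at 83.2% in the knockout and 51.4% in the control (q = 0.00668). Of 19 cofactor and partner genes 18 had regions, and 2 of 115 regions were called (1.74%, beside 6.74% of all regions), both higher. They were at the corepressor genes CTBP2, at 78.4% in the knockout and 52.0% in the control, and TLE3, at 80.1% in the knockout and 53.6% in the control. Of 14 noncoding or partner loci beside forkhead genes 13 had regions, and 14 of 64 regions were called (21.9%, beside 6.74% of all regions), 13 of them among the forkhead calls above. The exception was within FOXF2-DT, where 6 sites further from FOXF2 were at 80.8% in the knockout and 46.8% in the control (chromosome 6, 1378435 to 1378443, q = 0.00831).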

How the data were processed

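Reduced representation bisulfite sequencing was done on 3 DNMT3B knockout and 3 control libraries of M07e cells. FastQC, Trimmomatic, Bismark, HISAT2, methylKit and hg38 are named, without versions or roles, in the submitters' processing notes; the program behind the region table is not named there. Per the file headers, the authors deposited each group's mean methylation as a percent, the difference in points, a count of CpG sites, and p-values and a q-value per region. The file holds only the authors' comparison, so no new test per region was made. Regions overlapping a forkhead gene or within 10 kb were taken with RefSeq spans (GRCh38.p14). A call is q under 0.01 and at least 25 points. Forkhead genes with a call were all named, with 15 genes fixed by name, the 5 with most regions and those nearest the threshold; uncalled regions of other forkhead genes were named after their values were seen. The members and lists were chosen with earlier results of these data known. Adjustment and assignment were tested on simulated data. Alternatives covered the thresholds, adjustment, distance, sites, means of 0 and merging; 2 were chosen after seeing the data. RefSeq promoter windows were matched by position. Python 3.11.15, pandas 2.3.3 and numpy 2.4.6 were used. The depth is unknown, and the intervals that need it are not given. Values of 1 gene are not reported here.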

Additional observations from a re-analysis of the deposited data

How the results depend on the processing

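No paired analysis was possible because the table holds 1 mean per group, and for the same reason no library could be left out. All 32 calls pass by definition at a difference of 10 points and at q under 0.05, since both settings are looser, so this says nothing of their stability. The number of called regions was 18 at 40 points (13 higher, 5 lower, 12 genes), 15 at q under 0.001 (12 higher, 3 lower) and 19 with Benjamini-Hochberg adjustment of the Kolmogorov-Smirnov p over all regions (14 higher, 5 lower), beside 4.12% of all regions. At q under 0.05 the lower calls numbered 16. Counting only regions that overlap a gene gave 20 calls, 4 of them lower. These were 18.7% of such forkhead regions, beside 7.20% of regions inside any protein-coding gene. Regions within 1 kb gave 6 lower calls. With at least 10 sites there were 21 calls, 14 of them higher. Of forkhead regions with 10 to 14 sites 17.5% were called, beside 9.37% of all regions of that size. At 15 or more sites the shares were 46.7% and 26.8%. No share of all regions is given at 40 points, at q under 0.001 or 0.05, or within 1 kb. At those settings the counts do not show whether forkhead regions differed from the whole table. The share of higher calls was 80.0% both at q under 0.001 and over gene spans alone. Inside any protein-coding gene 1119 calls were higher and 514 lower. The median difference was 26.1 points over gene spans, 22.4 within 1 kb, 20.7 within 50 kb, 26.4 with at least 10 sites, 11.8 without regions that have a mean of 0, and 19.6 without those whose deposited difference is not that of the means. The median over all regions was not computed at these settings. These medians therefore do not show whether forkhead regions differed from all regions. Merging calls within 1 kb left 29. Of the 32 calls, 11 passed in every planned setting that held the region. Only 40 points, q under 0.001 and the Kolmogorov-Smirnov adjustment could drop a call here. All are cuts on the authors' own values, so this count is no measure of replication. The 11 were at FOXA3, FOXC2, FOXD2, FOXL2, FOXO1 and FOXO6, the FOXA2 gain and the loss inside FOXL1. With them were the regions of FOXF1 with 15 sites, of FOXF2 with 7 sites and of FOXA1 3177 bases away.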

Other observations

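The authors' Mann-Whitney p, adjusted by Benjamini-Hochberg over all regions at 0.01 with at least 25 points, was tried after seeing the data because regions with a mean of 0 had a Kolmogorov-Smirnov p of 1. It called 32 forkhead regions too (24 higher, 8 lower), beside 8.7% of all regions, and 26 of them were among the calls by q. The 6 calls by q that it left out also failed with the Kolmogorov-Smirnov adjustment. They were both FOXE1 calls, the FOXA2 loss, the FOXD3 loss, the loss between FOXC2 and FOXL1, and the FOXA1 gain that begins at 37594686. Of the 6 regions called by the Mann-Whitney p and not by q, 4 had a mean of 0. At FOXD3, 17 sites beyond the gene were at 0 in the knockout and 34.5% in the control (chromosome 1, 63326929 to 63327025). At FOXQ1, an epithelial forkhead factor, 18 sites within the gene were at 44.0% in the knockout and 0 in the control (chromosome 6, 1312263 to 1312343). Upstream of FOXB2, 7 sites were at 0 in the knockout and 56.0% in the control (chromosome 9, 77016072 to 77016104). Near FOXS1, 9 sites were at 46.4% in the knockout and 0 in the control (chromosome 20, 31849829 to 31849861). The remaining 2 extended gains already called beside them, at FOXC1 (52.3% in the knockout, 21.5% in the control) and FOXF1 (29.7% in the knockout, 1.90% in the control).

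In 2 forkhead regions the deposited difference was not that of the deposited means. At FOXA1 the means were 26.7% in the knockout and 40% in the control, while the deposited difference was 0.74 points. At the single site in FOXO3B they were 36.1% in the knockout and 52.2% in the control, with a deposited difference of -2.11 points. Neither was called.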
